A study of Mus musculus with 6 samples.

Results

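The 38 genes described here encode the machinery that brings secreted and membrane proteins into the endoplasmic reticulum (ER), cuts off their signal peptides, adds N-glycans to them and helps them to fold. They were chosen by name for this function, with earlier results of these data known, and 37 of the 38 were among the 12518 genes tested. Sec61g, the gamma subunit of the Sec61 channel, was not tested because its only probe set on the array is annotated to several genes. RNA came from 3 mammary tumors of acinar type from K14-cre; ApcCKO/+ mice and from 3 control mammary glands of age-matched cre-negative mice, with 1 Affymetrix mouse array per sample. In the tumor mice, Cre recombinase under the keratin 14 promoter acts on 1 conditional allele of Apc, a tumor suppressor of the Wnt pathway, while the germline allele opposite it is wild type. Of the 3 array tumors the study states that each carried the recombined allele and that the allele left over had acquired a truncating mutation. The keratin 14 promoter works from embryonic life onward, in skin and in the precursors of the mammary epithelium, luminal and basal alike. The array tumors were picked for their acinar histology, so they do not stand for the squamous and pilar tumors of the same mice. The methods describe mice of a mixed background (C57BL/6, 129/S and FVB), on which the acinar type was found. The strain share and age of each mouse, and whether the cre-negative mice carried the conditional allele, are not given in the sources used here. Each sample is labelled a biological replicate with no animal named, and the p-values measure only the spread between these samples.

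A protein made for secretion is recognised by its signal peptide as it leaves the ribosome. The signal recognition particle (SRP) binds the signal peptide, docks at its receptor on the ER membrane and hands the ribosome to the Sec61 channel, beside which the translocon-associated protein (TRAP) complex lies. The signal peptidase complex removes the signal peptide, the oligosaccharyltransferase transfers a preassembled glycan to asparagine, and lectin chaperones and disulfide isomerases fold the product. In the mammary gland this pathway is used most heavily by luminal cells that secrete milk, and B-lineage plasma cells depend on it too. When unfolded proteins build up, the sensors of the unfolded protein response raise many of these genes, through short DNA elements in their promoters that bind the factors NF-Y, ATF6 and XBP1.

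The promoters of the genes that carry the best known of these elements are shown as a description. The genes were chosen for a function that this response is known to raise, so the shares below are not independent of the choice. The ER stress element was searched as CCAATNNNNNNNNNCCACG on both strands of RefSeq promoter windows of 300 bases (250 before to 50 after the start, GRCm38.p6). Windows were found for 29 of the 38 genes. The element was in 4 of these 29 (13.8%), against 37 of 27025 genes with a window (0.137%). The 4 genes all encode folding factors. Calr, at chr8:84846882-84847181 (minus strand), and Canx, at chr11:50325624-50325923 (minus strand), hold 1 copy each. Hsp90b1, at chr10:86705395-86705694 (minus strand), holds 2 copies, and Pdia6, at chr12:17266339-17266638 (plus strand), holds 1. Capitals mark the element, read along the gene's strand. The copy in Calr and the second copy in Hsp90b1 lie in the opposite orientation and therefore start with CGTGG.
Calr: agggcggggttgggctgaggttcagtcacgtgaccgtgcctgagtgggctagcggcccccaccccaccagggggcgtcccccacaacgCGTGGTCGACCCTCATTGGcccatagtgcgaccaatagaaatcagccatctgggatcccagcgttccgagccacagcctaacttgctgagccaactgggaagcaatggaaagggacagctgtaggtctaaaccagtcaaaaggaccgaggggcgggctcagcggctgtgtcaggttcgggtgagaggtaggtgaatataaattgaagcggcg
Canx: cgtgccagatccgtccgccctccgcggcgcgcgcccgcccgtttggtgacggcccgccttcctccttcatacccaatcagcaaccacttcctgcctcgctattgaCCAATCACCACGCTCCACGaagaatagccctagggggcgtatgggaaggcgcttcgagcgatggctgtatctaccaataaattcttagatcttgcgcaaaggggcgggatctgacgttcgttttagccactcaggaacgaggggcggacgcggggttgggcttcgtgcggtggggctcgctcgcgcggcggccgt
Hsp90b1: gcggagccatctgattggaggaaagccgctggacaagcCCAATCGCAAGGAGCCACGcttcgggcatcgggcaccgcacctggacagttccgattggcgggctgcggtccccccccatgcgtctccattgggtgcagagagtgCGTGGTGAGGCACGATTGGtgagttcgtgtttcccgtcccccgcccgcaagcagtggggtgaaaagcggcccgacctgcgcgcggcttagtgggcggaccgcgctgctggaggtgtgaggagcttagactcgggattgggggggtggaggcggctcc
Pdia6: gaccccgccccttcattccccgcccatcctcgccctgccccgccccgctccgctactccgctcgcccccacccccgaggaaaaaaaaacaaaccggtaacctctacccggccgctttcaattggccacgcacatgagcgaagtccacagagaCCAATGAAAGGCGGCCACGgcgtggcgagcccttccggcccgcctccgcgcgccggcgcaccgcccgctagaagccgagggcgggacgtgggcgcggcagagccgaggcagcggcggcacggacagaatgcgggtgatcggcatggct
The ER stress element II, searched as ATTGGNCCACG (12 of 27025 genes, 0.0444%), and the unfolded protein response element, searched as TGACGTGG (193 of 27025 genes, 0.714%), were in none of the 29 windows. None of these matches tells whether a factor was bound in the samples.

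On each array the authors' signal is an intensity on a linear scale, and every array had been scaled to the same trimmed mean of 500. All values below are these signals, or the log2 fold change, tumor minus control gland. A signal is not comparable between probe sets of different genes, so each gene is set only against itself. Of the 37 genes, 27 were higher in tumors, none was lower and 10 did not pass, where higher means an adjusted p under 0.05 in a limma fit over all genes. In the same fit 16.3% of all genes were called higher and 16.8% lower. The median log2 fold change was 0.93 over the 37 genes and 0.07 over all genes. The lowest value among the 37 was 0.01, for Srp14, and the highest was 2.07, for Sec11c. Of the 27, 16 were at least 2-fold higher. For 32 of the 37 genes the lowest tumor signal exceeded the highest control signal, which was so for 27.1% of all genes. The count of 27 fell when a single array was left out, to 13 without tumor 2, 15 without tumor 3, 16 without control gland 1 and 10 without control gland 3, while 10.4% to 12% of all genes were called higher in these 4 fits. The median log2 fold change stayed between 0.85 and 1.00 with each of the 6 arrays left out in turn.

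**Figure D1:**
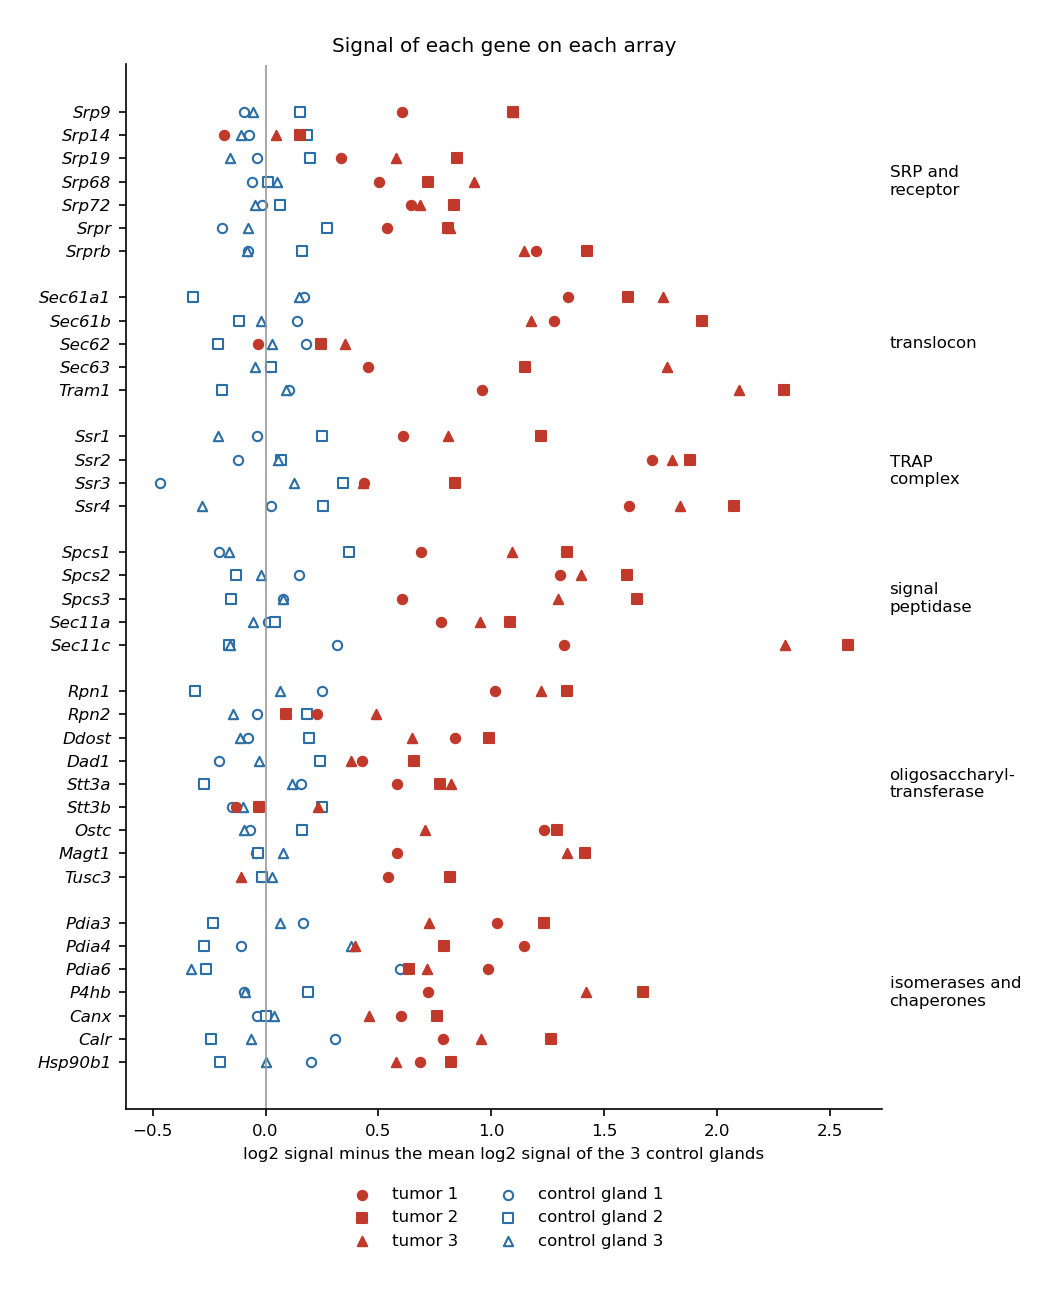
Each row is a gene and the x axis is its log2 signal minus the mean log2 signal of the 3 control glands, with filled red symbols for the 3 tumors and open blue symbols for the 3 control glands. For 32 of the 37 genes all red symbols lie to the right of all blue symbols, and the groups overlap for Srp14, Sec62, Rpn2, Stt3b and Tusc3.

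The makeup of the samples moved with the groups. Of 12 epithelial markers, among them Epcam and Cdh1 and the luminal keratins Krt8 and Krt18, 11 were higher in tumors, with a median log2 fold change of 2.48. Their summed signal was 88890, 106100 and 115400 in tumors 1 to 3, against 23650, 12820 and 29210 in control glands 1 to 3. Of 6 markers of basal epithelium, 3 were higher and none was lower, and their sums were 20970 to 26890 in tumors and 11580 to 15400 in control glands. All 8 adipocyte markers tested were lower, with sums of 3409 to 13920 in tumors and 150100 to 205900 in control glands. All 8 fibroblast and matrix markers and all 7 endothelial markers tested were lower too, and Adipoq had a signal of 14.8 in tumor 3. In tumors the fibroblast sums were 2476 to 15300 and the endothelial sums 1173 to 2762, against 64840 to 83170 and 6718 to 8687 in control glands. Of 7 markers of B and plasma cells tested, out of 10 listed, 4 were lower and only Sdc1, which epithelial cells also express, was higher. The filter kept probe sets with a signal of 100 or more on at least 3 arrays. Cd79b, Ms4a1 and Irf4, counted among the 4, were under 100 in every tumor and passed it only through the control glands. As for the endothelial marker Vwf, their call as lower was therefore partly set by the filter. Without Sdc1 the sum over the other 6 was 572, 1242 and 1203 in tumors 1 to 3, against 31410, 3180 and 3765 in control glands 1 to 3, so that all tumors lay below all control glands and control gland 1 stood apart. Of 6 macrophage markers 2 were lower, and the sums were 5183 to 7552 in tumors and 12080 to 18870 in control glands. The single T cell marker tested was not called, at a log2 fold change of -2.26. The arrays read whole tissue, in which fewer cells of a type and less RNA per cell cannot be told apart. The part of these shifts in the results below was not tested.

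The signal recognition particle and its receptor gave 5 higher genes of 7, with a median log2 fold change of 0.72. The membrane subunit of the receptor, Srprb, which anchors the SRP-binding subunit Srpr, moved most. Srprb had signals of 1112, 1304 and 1072 in tumors, against 460, 543 and 458 in control glands. The groups lay far apart, with a log2 fold change of 1.26 ± 0.20 (SE, n = 3 against 3, limma adjusted p = 0.00399). Of its 2 other probe sets, 1 was called at 1.48 and 1 was not, at 0.54. Srpr had signals of 4493, 5418 and 5450 in tumors and of 2704, 3734 and 2928 in control glands, a log2 fold change of 0.72 ± 0.22 (adjusted p = 0.0411). Srp9 and Srp14 encode the heterodimer that slows translation while the ribosome is brought to the membrane. Srp9 had signals of 4141, 5815 and 5818 in tumors and 2546, 3023 and 2616 in control glands, with every tumor above every control gland (log2 fold change 0.93, adjusted p = 0.0186). Its partner Srp14 had 6472, 8175 and 7591 in tumors and 6984, 8336 and 6803 in control glands, ranges that overlap fully (log2 fold change 0.01, 95% confidence interval -0.48 to 0.49). All 4 probe sets of Srp14 lay between -0.02 and 0.16, whereas the second probe set of Srp9 gave 0.38 and was not called. Srp68 and Srp72, which form another heterodimer of the particle, were higher by nearly the same amount, at 0.71 (adjusted p = 0.0333) and 0.72 (adjusted p = 0.0248). Srp19, which helps the particle to assemble on its RNA, had signals of 3365, 4803 and 3984 in tumors and 2603, 3060 and 2393 in control glands, and did not pass (log2 fold change 0.59, adjusted p = 0.0848).

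The translocon genes had the highest median of the 6 role groups, 1.46, with 4 of 5 genes higher. Sec61a1 encodes the pore of the channel and Sec61b a small subunit of it. Sec61a1 had signals of 7058, 8482 and 9453 in tumors, against 3133, 2229 and 3089 in control glands. Sec61b had 7846, 12363 and 7315 in tumors, against 3564, 2980 and 3192 in control glands. For both genes the tumors lay well clear of the control glands, at 1.57 ± 0.24 for Sec61a1 (adjusted p = 0.00296) and 1.46 ± 0.26 for Sec61b (adjusted p = 0.00568). Of the 6 probe sets of Sec61a1, 3 were called higher and the other 3 lay between 0.48 and 0.52. Tram1, which contacts nascent chains as they enter the membrane, had signals of 5224, 13208 and 11496 in tumors, against 2884, 2349 and 2865 in control glands. Tumor 1 was the lowest of the 3 tumors for Tram1 and still lay above the control glands (log2 fold change 1.78 ± 0.36, adjusted p = 0.00967). Sec62 and Sec63 act together on proteins that enter after their synthesis is complete. Sec63, which also recruits the chaperone BiP through its J domain, had 1457, 2364 and 3654 in tumors and 1080, 1084 and 1032 in control glands (log2 fold change 1.13 ± 0.34, adjusted p = 0.0382). Its 5 probe sets did not move together: 2 were called higher and 2 others had negative values, down to -0.31. With the mean over its probe sets Sec63 was no longer called (log2 fold change 0.43, limma adjusted p = 0.132). Sec62 had 3737, 4542 and 4879 in tumors and 4338, 3311 and 3904 in control glands, with overlapping groups (log2 fold change 0.19, 95% confidence interval -0.32 to 0.70).

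The TRAP complex assists chains whose signal peptides open the channel poorly. Its 4 subunits gave 3 higher genes and a median of 1.34. Ssr2 had signals of 3336, 3750 and 3547 in tumors, against 935, 1067 and 1060 in control glands. The 3 tumors lay close together and far above the control glands, and Ssr2 had the smallest adjusted p of the 37 genes (log2 fold change 1.80 ± 0.19, adjusted p = 0.000792). Ssr4 had 6921, 9560 and 8100 in tumors, against 2306, 2702 and 1865 in control glands (log2 fold change 1.84 ± 0.24, adjusted p = 0.00167). The probe set used for Ssr4 is of a type that may also bind other transcripts. Its 2 other probe sets, which were dim, lay at 0.38 and 0.68 and were not called. Ssr1 had 5555, 8503 and 6390 in tumors, against 3548, 4331 and 3153 in control glands (log2 fold change 0.88, adjusted p = 0.0309). Another probe set of Ssr1 was called at 1.40, and dim ones at 0.38 and 0.56 were not. Ssr3 did not pass, although each tumor, at 6012, 7946 and 5992, lay above each control gland, at 3214, 5628 and 4842 (log2 fold change 0.57, adjusted p = 0.149). Its other probe set gave 0.03.

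The signal peptidase complex was the only role group in which all tested genes were higher, 5 of 5, with a median of 1.18. Sec11a and Sec11c encode alternative catalytic subunits, so that a complex holds one or the other. Sec11c had signals of 3616, 8630 and 7111 in tumors, against 1797, 1292 and 1295 in control glands. The log2 fold change of 2.07 ± 0.35 (adjusted p = 0.00497) was the highest of the 37 genes, and tumor 1 was again the lowest tumor. A second, dim probe set of Sec11c gave 0.71 and was not called. Sec11a had 4668, 5756 and 5250 in tumors, against 2741, 2801 and 2619 in control glands (log2 fold change 0.94 ± 0.20, adjusted p = 0.0104). The accessory subunits moved by similar amounts. Spcs2 had 6702, 8237 and 7133 in tumors and 3005, 2479 and 2674 in control glands, and both of its probe sets were called (log2 fold change 1.44 ± 0.20, adjusted p = 0.00234). Spcs3, which the catalytic subunits need for activity, was higher by 1.18 (adjusted p = 0.0207), with tumors at 2338 to 4813 and control glands at 1382 to 1621. Spcs1 was higher by 1.04 (adjusted p = 0.0228), with tumors at 9149 to 14349 and control glands at 4921 to 7336. Another probe set of Spcs1 was called at 0.85, and a dim one at 0.48 was not.

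The oligosaccharyltransferase gave 5 higher genes of 9 and a median of 0.73. It exists in forms built around the catalytic subunit STT3A, which acts on chains entering the channel, or STT3B, which acts on sites that STT3A missed. Stt3a had signals of 7778, 8890 and 9184 in tumors, against 5797, 4306 and 5630 in control glands. Stt3b had 7074, 7577 and 9096 in tumors and 6985, 9191 and 7210 in control glands. Stt3a was called (log2 fold change 0.73 ± 0.22, adjusted p = 0.0376) and Stt3b was not, with overlapping groups (log2 fold change 0.03, 95% confidence interval -0.49 to 0.54). The probe set used for Stt3a is of a type that may also bind other transcripts. Another was called at 1.16, and dim ones at 0.66 and 0.38 were not. With the mean over its probe sets Stt3a was no longer called (limma adjusted p = 0.060). Ostc, a subunit that links the STT3A form to the channel, had 3862, 4022 and 2684 in tumors, against 1568, 1839 and 1539 in control glands (log2 fold change 1.08 ± 0.24, adjusted p = 0.0128). A second, dim probe set of Ostc gave 0.75 and was not called. Magt1 and Tusc3 encode alternative oxidoreductase subunits of the STT3B form. Magt1 had 3136, 5576 and 5280 in tumors, against 2032, 2041 and 2208 in control glands, and both of its probe sets were called (log2 fold change 1.11 ± 0.27, adjusted p = 0.0184). Tusc3 had 1292, 1564 and 822 in tumors and 878, 878 and 904 in control glands, so that tumor 3 lay below all control glands (log2 fold change 0.42, adjusted p = 0.275). Of the subunits shared by both forms, Rpn1 moved most. Rpn1 had 9137, 11395 and 10508 in tumors and 5355, 3634 and 4711 in control glands, and all 5 of its probe sets tested were called, at 1.17 to 1.67 (log2 fold change 1.19 ± 0.23 for the brightest, adjusted p = 0.00781). Ddost had 2330, 2582 and 2037 in tumors and 1231, 1485 and 1204 in control glands (log2 fold change 0.83, adjusted p = 0.0217). Rpn2 had 2472, 2247 and 2966 in tumors and 2056, 2394 and 1906 in control glands and did not pass, and its groups overlapped (log2 fold change 0.27, adjusted p = 0.368). Dad1 did not pass either, at 0.49 (adjusted p = 0.122), with tumors at 2714 to 3287 and control glands at 1804 to 2462.

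Of the 7 disulfide isomerases and chaperones, 5 were higher, with a median of 0.78. P4hb, the classical protein disulfide isomerase, had signals of 10971, 21259 and 17834 in tumors, against 6232, 7585 and 6250 in control glands. It moved most in the group, by 1.27 ± 0.29 (adjusted p = 0.0144), with tumor 1 lowest among tumors. Pdia3, the isomerase that works with the lectins, had 7211, 8337 and 5857 in tumors, against 3975, 3020 and 3710 in control glands (log2 fold change 0.99 ± 0.23, adjusted p = 0.0157). Its other probe set, which was dim, gave 0.14 and was not called. Calreticulin and calnexin are the soluble and the membrane-bound lectin that hold glycoproteins while they fold. Calr had 11426, 15921 and 12860 in tumors, against 8200, 5601 and 6332 in control glands, and its 3 probe sets lay at 1.00 to 1.11 (log2 fold change 1.00 ± 0.24, adjusted p = 0.0181). Canx had 9786, 10949 and 8869 in tumors, against 6289, 6467 and 6643 in control glands (log2 fold change 0.60 ± 0.19). With an adjusted p of 0.0490, Canx lay closest to the threshold of the 27 genes called. Its 2 other probe sets gave 0.31 and 0.43 and were not called. Calls of other probe sets come from a separate limma fit over all probe sets. In that fit the probe set used for Canx was not called either (adjusted p = 0.0650). Hsp90b1, the ER member of the HSP90 family, had 11270, 12379 and 10468 in tumors, against 8052, 6104 and 7013 in control glands (log2 fold change 0.69 ± 0.21, adjusted p = 0.0387), and its other probe set gave 0.32 and was not called. With the mean over each gene's probe sets, Pdia3, Canx and Hsp90b1 were no longer called. Pdia4 and Pdia6, further isomerases, did not pass. Pdia4 was dim, with 385, 301 and 229 in tumors and 162, 144 and 226 in control glands (log2 fold change 0.78, adjusted p = 0.0700). Pdia6 had 2913, 2283 and 2417 in tumors and 2224, 1222 and 1169 in control glands, where control gland 1 stood close to the tumors (log2 fold change 0.78, adjusted p = 0.0810). Of the 4 genes whose promoter windows hold the ER stress element, Calr, Canx and Hsp90b1 were thus called and Pdia6 was not, beside 73.0% of the 37 genes. Canx and Hsp90b1 were not called in any of the 6 fits with 1 array left out. A link between the element and the signals was not tested.

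**Figure D2:**
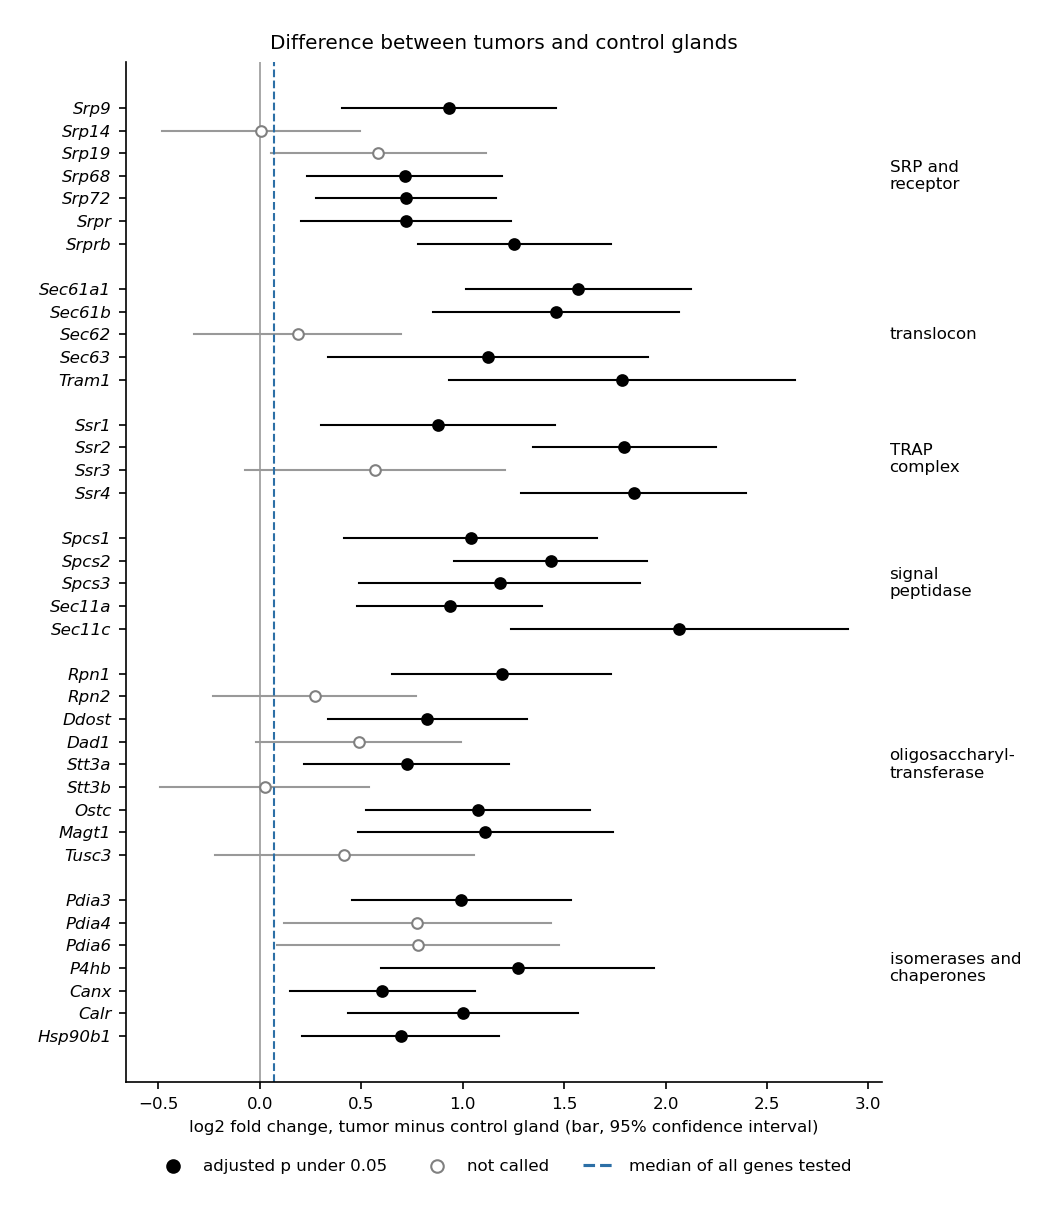
Each row is a gene, grouped by role; the x axis is the log2 fold change, tumor minus control gland, with its 95% confidence interval from the limma fit, and filled points have an adjusted p under 0.05. All 37 points lie above 0, from 0.01 for Srp14 to 2.07 for Sec11c (34 of them after quantile normalization and 21 when the arrays are scaled to cytosolic chaperones), and all 5 signal peptidase genes are filled.

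Unequal change within a complex was tested for 3 pairs only, and none passed. In these 3 pairs of genes whose products replace or exclude each other, the log2 ratio of the signals was taken within each array, which asks only whether the pair changed unequally. The ratio of Stt3a to Stt3b was 0.14, 0.23 and 0.01 in tumors, against -0.27, -1.09 and -0.36 in control glands, a difference of 0.70. The ratio of Sec11a to Sec11c was 0.37, -0.58 and -0.44 in tumors, against 0.61, 1.12 and 1.02 in control glands, a difference of -1.13. Neither pair overlapped between groups, and both reached the smallest p that an exact permutation test over 3 against 3 arrays allows (2-sided p = 0.1, 0.15 after Benjamini-Hochberg adjustment over the 3 pairs). The ratio of Magt1 to Tusc3 was 1.28, 1.83 and 2.68 in tumors, against 1.21, 1.22 and 1.29 in control glands, a difference of 0.69 with overlapping groups (exact permutation p = 0.2, adjusted 0.2). No pair could pass a threshold of 0.05 with this number of arrays. The difference for Sec11a and Sec11c was -0.45 when the mean over each gene's probe sets was used.

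**Figure D3:**
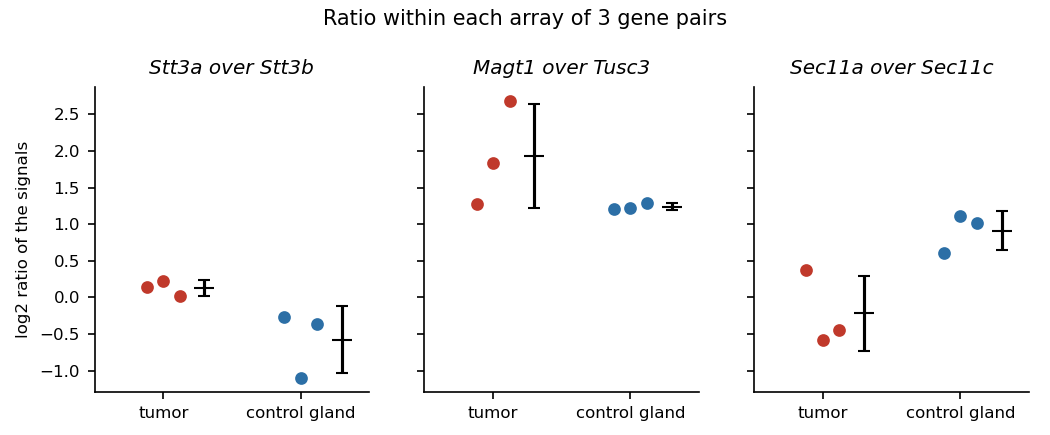
Points are the log2 ratio of the signals of 2 genes within each array, for 3 tumors (red, left) and 3 control glands (blue, right), and the black mark with its bar is the mean ± SD. The tumors lie above the control glands for Stt3a over Stt3b and below them for Sec11a over Sec11c, and the groups overlap for Magt1 over Tusc3.

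The 3 tumors were not alike. Set against the mean of the control glands, the median of the 37 genes was 0.68 in tumor 1, 1.10 in tumor 2 and 0.82 in tumor 3, and between -0.05 and 0.03 in the control glands. Over all genes the medians were 0.11, 0.02 and 0.10 in tumors 1 to 3. Of the 37 genes, 26 had the highest signal of the 3 tumors in tumor 2 and 24 the lowest in tumor 1. These counts were not made over all genes. The epithelial marker sums given above were lowest in tumor 1 and highest in tumor 3, and their part in these differences was not tested. Bright genes weigh most in these sums, and single markers differed in order. Epcam, Krt8, Krt18, Cldn3, Spint2 and St14 were lowest in tumor 1. Cdh1, Esrp1, Esrp2, Elf3 and Spint1 were lowest in tumor 2, and Cldn7 in tumor 3. In the role groups the gap was widest for the translocon, with medians of 0.96, 1.61 and 1.76 in tumors 1 to 3, and for the signal peptidase, with 0.78, 1.60 and 1.30. It was narrowest for the isomerases and chaperones, with 0.79, 0.82 and 0.72. The ratio of the highest to the lowest signal had a median of 1.34 among tumors and 1.26 among control glands, and it was larger among tumors for 24 of the 37 genes. It was not taken over all genes, so this spread is not known to be particular to the 37.

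The surrounding steps of the pathway were read from 7 further lists of ER genes, chosen by function, which held 115 genes tested. Of these 32 were higher and 7 lower, with a median of 0.43, so that the 37 genes had both a larger called share, 73.0% against 27.8%, and a larger median. Among 22 other genes of targeting and membrane insertion, 4 were higher and 4 lower, 18.2% each (median 0.39). These shares lay near those of all genes, 16.3% higher and 16.8% lower. Tmem147, a partner of the translocon, was higher by 1.14 (adjusted p = 0.00855), whereas Tram2, the homolog of Tram1, had 220, 87.1 and 191 in tumors and 352, 439 and 357 in control glands and fell by 1.30 (adjusted p = 0.0307). Emc9, of the ER membrane complex that inserts membrane proteins, fell by 1.27 (adjusted p = 0.0490), and Nomo1 was at 0.11 (adjusted p = 0.733). Of the 3 remaining oligosaccharyltransferase subunits, Krtcap2 was higher by 1.18 (adjusted p = 0.00971) and Ost4 was at 0.06 (adjusted p = 0.895).

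The steps before and after glycan transfer had 31.8% and 30.0% of their genes called higher, beside 16.3% of all genes. Of 22 genes that build the dolichol-linked glycan, 7 were higher and 1 was lower (median 0.50). Alg5, which makes the glucose donor of this assembly, had 2018, 3169 and 3271 in tumors, against 757, 1072 and 790 in control glands (log2 fold change 1.68, adjusted p = 0.00414). The mannosyltransferase Alg11 (1.41, adjusted p = 0.0049) and Mpdu1 (1.07, adjusted p = 0.00991), needed for the use of the mannose and glucose donors, were higher too, and Alg3 was at -0.18 (adjusted p = 0.629). Of 10 genes of glycan trimming, 3 were higher and none was lower (median 0.52). These were Mogs, the glucosidase that removes the first glucose (1.34, adjusted p = 0.0227), and Edem3 (1.04, adjusted p = 0.00951) and Edem2 (0.90, adjusted p = 0.0316), which mark misfolded glycoproteins for disposal. Mlec, a lectin for diglucosylated glycans, was at -0.16 (adjusted p = 0.614).

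Other folding factors of the ER gave 9 higher genes (39.1%, beside 16.3% of all genes) and 1 lower of 23 (median 0.69). Prdx4, a peroxidase that uses hydrogen peroxide to make disulfides, had 3827, 5676 and 4141 in tumors, against 1127, 1142 and 1308 in control glands (log2 fold change 1.91, adjusted p = 0.00127). The prolyl isomerase Ppib was higher by 1.39 (adjusted p = 0.0102). Fkbp7, another prolyl isomerase, fell by 1.74 (adjusted p = 0.0131), with 468, 486 and 198 in tumors and 953, 1441 and 1215 in control glands. Dnajc10 was at 0.02 (adjusted p = 0.946). For export to the Golgi, 5 of 22 genes of the COPII coat and of cargo receptors were higher (22.7%) and 1 was lower. Their median of 0.13 lay near that of all genes, of which 16.3% were higher. The called ones with the largest change were the cargo receptors Tmed3 (1.90, adjusted p = 0.00647), Tmed9 (1.77, adjusted p = 0.00188) and Lman1 (1.35, adjusted p = 0.0122), while the coat subunit Sec24a was at 0.00 (adjusted p = 0.988).

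Of 13 transducers and factors of the unfolded protein response, 3 were higher (23.1%, beside 16.3% of all genes) and none was lower (median 0.25). Xbp1, the transcription factor that the sensor IRE1 activates by splicing, had signals of 25302, 36480 and 34109 in tumors, against 12343, 10219 and 11397 in control glands (log2 fold change 1.48 ± 0.23, adjusted p = 0.00314). The probe set does not tell the spliced form from the unspliced. Creb3l4 (2.38, adjusted p = 0.0255) and Creb3l1 (1.28, adjusted p = 0.0326), which encode membrane-bound factors related to ATF6, were higher. The Creb3l4 signal was 118.2, 532.7 and 631.1 in tumors and 22.1, 57.2 and 97.9 in control glands. The first control value was raised to 50 before the fit, and tumor 1 lay close to control gland 3. Creb3l4 passed the filter, a signal of 100 or more on at least 3 arrays, only through the tumors. Its call as higher was therefore partly set by the filter. Atf6b was at 0.01 (adjusted p = 0.986). Genes that ER stress is known to raise were singled out after their values had been seen, and they moved unequally. Hspa5, which encodes BiP and also has the ER stress element in its window, had 15996, 23918 and 19030 in tumors and 14965, 9459 and 9372 in control glands and did not pass (log2 fold change 0.82, adjusted p = 0.0561). Atf4 had 2258, 2387 and 2186 in tumors and 2370, 3844 and 2590 in control glands (log2 fold change -0.33, adjusted p = 0.326). Ddit3, which encodes CHOP, had 405, 328 and 513 in tumors and 830, 688 and 563 in control glands (log2 fold change -0.75, adjusted p = 0.0610). In contrast, Creld2 (1.33, adjusted p = 0.0105), Sdf2l1 (1.30, adjusted p = 0.0131), Manf (0.97, adjusted p = 0.0394) and Dnajb11 (0.81, adjusted p = 0.0251) were higher. Hyou1 (0.65, adjusted p = 0.155), Dnajc3 (0.21, adjusted p = 0.534) and Dnajb9 (-0.40, adjusted p = 0.237) did not pass. Like Hspa5, Creld2 and Dnajc3 have the ER stress element in their windows, and Dnajb11 has the ER stress element II.

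Chaperones of the cytosol, which lie outside the secretory pathway, were read for comparison. Of 17 genes, 6 were higher (35.3%, beside 16.3% of all genes) and none was lower, with a median of 0.62. The largest changes were in subunits of the CCT ring, which folds actin and tubulin: Cct5 (1.26, adjusted p = 0.00539), Cct3 (1.04, adjusted p = 0.0082) and Cct7 (1.00, adjusted p = 0.00841), while Hsph1 was at 0.18 (adjusted p = 0.705). When the arrays were scaled so that these chaperones had equal medians, the median of the 37 ER genes was 0.15 and that of all genes was -0.71. Under that scaling 4 of the 37, Ssr2, Ssr4, Spcs2 and Sec11c, were called higher, Srp14 was called lower and 21 of the 37 values were above 0, while 4.08% of all genes were called higher and 42.2% lower.

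**Figure D4:**
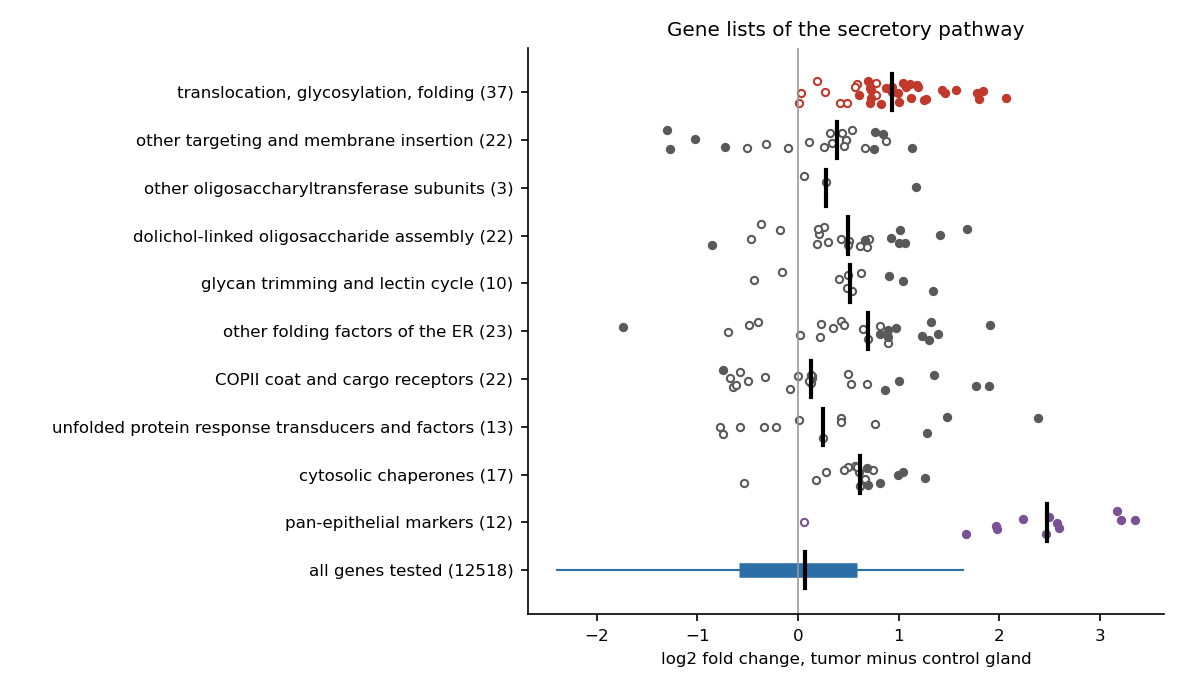
Each point is a gene and the x axis is its log2 fold change, tumor minus control gland; filled points have an adjusted p under 0.05, black bars are medians and numbers in parentheses are genes tested. For all genes the thick bar spans the 25th to the 75th percentile (-0.59 to 0.59) and the thin line the 5th to the 95th (-2.40 to 1.64); the 37 ER genes have a median of 0.93 and the pan-epithelial markers one of 2.48.

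Of the 27 genes called higher, 10 stayed called with each array left out in turn: Srprb, Sec61a1, Sec61b, Tram1, Ssr2, Ssr4, Spcs2, Sec11a, Sec11c and Rpn1. In contrast, Stt3a, Canx and Hsp90b1 were not called in any of these 6 fits. Ssr2, Spcs2 and Sec11c were called in all 18 alternatives of the limma fit. The 37 genes were read by 85 probe sets that passed the filter. Of these, 42 were called higher and 0 lower in a limma fit over 22492 probe sets. In that fit 13.3% of all probe sets were called higher and 15.2% lower. The probe sets used for Canx (adjusted p = 0.0650) and Srpr (adjusted p = 0.0513) were not called in it. For 21 of 24 genes with several probe sets, all probe sets of the gene changed in the same direction. The exceptions were Sec63, Srp14 and Stt3b. Only 12 of the 24 had the same call for all their probe sets.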

How the data were processed

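Total RNA was read on 6 Affymetrix arrays. The deposited values are intensity signals that the authors made with MAS5 (version: not given in the sources used here) and scaled to a target of 500. They are linear and hold no read depth. The number of arrays limits the precision, as do dim probe sets and those that may bind other transcripts. Of 45101 probe sets, 64 controls were left out, and 34945 had 1 gene symbol, 932 several and 9160 none in the platform annotation. Signals below 50 were set to 50, log2 was taken, probe sets with a signal of 100 or more on at least 3 of 6 arrays were kept, and the brightest by mean log2 signal stood for each of 12518 genes. The comparison used limma 3.58.1 (lmFit, eBayes; R 4.3.3), 2-sided, with Benjamini-Hochberg adjustment over all genes and a threshold of 0.05 without a fold limit. The steps were tested on simulated data. The genes and lists were chosen with earlier results of these data known. Every one of the 38 genes is named, and of each pathway list up to 3 called genes with the largest change and the 1 not called with the largest p. Alternatives were other floors, scalings, filters and probe set rules, a variance trend, a replicate block, each array left out in turn, and the methods' t-test. Promoters are from RefSeq, and windows were matched by symbol.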

Additional observations from a re-analysis of the deposited data

How the results depend on the processing

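With 3 arrays a group, counts of calls moved more than fold changes did. The number of the 37 genes called higher was 10 to 23 with each array left out in turn (10.4% to 12.7% of all genes) and 19 with the replicate block, which called 13.0% of all genes higher and 14.9% lower. The replicate numbers were not used as pairs, since the deviations of same-numbered arrays correlated at -0.22, 0.02 and 0.04, with 1 value for each of 3 numbers. The methods' t-test, at a statistic of at least 4.5 and a ratio of at least 2, called 6 of the 37 higher and 0 lower, beside 685 higher and 920 lower of all genes. After Benjamini-Hochberg adjustment these were 0 and 0 of the 37, beside 67 and 73 of all genes. The median was 1.17 with equal array medians, where 29 genes were higher and the median of all genes moved to 0.31 (23.9% of all genes higher, 13.4% lower), and 0.78 with the mean over probe sets. Scaling to the cytosolic chaperones gave a median of 0.15, with 4 genes higher and 1 lower. It turned the sign of 16 of the 37: Srp14 (-0.78, adjusted p = 0.0344), of called genes Srp68 (-0.0701), Srp72 (-0.065), Srpr (-0.0631), Stt3a (-0.0597), Canx (-0.18) and Hsp90b1 (-0.0908), and of genes not called Stt3b (-0.76), Sec62 (-0.60), Rpn2 (-0.51), Tusc3 (-0.37), Dad1 (-0.30), Ssr3 (-0.22), Srp19 (-0.20), Pdia4 (-0.0075) and Pdia6 (-0.0055). Genes not called turned sign elsewhere too: Stt3b (-0.11), Srp14 (-0.10) and Ssr3 (-0.0569) under quantile normalization, Stt3b (-0.0225) with the mean over probe sets, Srp14 (-0.0195) without probe sets that may cross-hybridize, and, with 1 array left out, Srp14 (-0.0673 to 0.10), Stt3b (-0.0794 to 0.15) and Ssr3 (-0.17 to 0.74). With any 1 tumor left out, the brightest probe set of Ssr3 became its other one, which gave 0.03 with all arrays. The range of Ssr3 therefore also reflects a change of probe set. Scaling to the chaperones shifts every gene on an array by the same amount, taken from the median log2 signal of the chaperones on that array. That amount is not their median log2 fold change of 0.62. The difference for Sec11a over Sec11c moved to -0.45 with the mean over probe sets, which lets the dim probe set of Sec11c count as much as the bright one. The 18 alternatives of the limma fit gave 666 values of single genes. Of these, 528 kept their direction and side of the threshold, 107 kept only the direction, 4 gained a call and 27 changed sign. Ssr2, Spcs2 and Sec11c kept both in all 18, which do not include the methods' t-test.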
